A study of Mus musculus with 9 samples.

Results

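Kit and 8 further cytokine receptor genes of blood cells (Flt3, Csf1r, Csf2ra, Csf2rb, Csf2rb2, Csf3r, Il3ra and Il6ra) were followed across sorted mouse leukemia cells. They were chosen by name, with earlier results of these data known. All 9 were found once each among the 55536 genes of the expression table. RNA was sequenced in 9 libraries, 3 from each of 3 sorted populations: AML-WT-c-kit- leukemia cells (WT c-kit- from here on), AML-WT-c-kit+ leukemia cells (WT c-kit+) and cells that carry the label AML-IRF7-/--c-kit+. The leukemia was made by infecting c-kit+ blood progenitors of wild-type or IRF7-/- donors on the C57BL/6J background with a retrovirus carrying the MLL-AF9 fusion oncogene and GFP, so all 3 groups carried MLL-AF9 and GFP. The genotype label reads control-GFP overexpression in both AML-WT groups and IRF7-/--GFP overexpression in the other. The leukemia cells were passed to C57BL/6J recipients of 6 to 8 weeks of age, which were not irradiated, at 1000000 GFP+ cells per mouse. On day 18 leukemia cells were sorted from the bone marrow of these recipients, by GFP and by c-kit, the protein of the Kit gene. The recipients kept their own blood cells, and the labels do not say whether replicates were separate mice or pools, so p-values measure the spread between these libraries, which may be technical.

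Cytokine receptors tell blood cells whether to survive, divide or mature. Kit, Flt3 and Csf1r are receptor tyrosine kinases: binding of their ligand pairs 2 receptor molecules, which then phosphorylate each other. Receptors for GM-CSF, IL-3, G-CSF and IL-6 have no kinase of their own and signal through JAK kinases bound to their inner part and through STAT transcription factors. The GM-CSF and IL-3 receptors each have a private alpha chain, Csf2ra or Il3ra, and share the beta common chain Csf2rb, while mice have a further beta chain, Csf2rb2, that works with Il3ra alone. In the bone marrow Kit marks stem and progenitor cells, Csf1r monocytes and macrophages, and Csf3r cells of the neutrophil line.

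The values were TPM (transcript abundance per fixed library total), which set each gene against its length and all other genes of the library. TPM keep no read depth, so precision is known only from the 3 libraries of a group. Libraries of the same group correlated at r of 0.973 to 0.984 across genes, and libraries of different groups at 0.851 to 0.932, with genes not independent of each other. The label check went against the genotype within c-kit+ cells: Irf7 was at 5.31, 3.91 and 3.36 TPM in WT c-kit+, and the third group, called the labelled IRF7-/- libraries from here on, had 12.8, 5.97 and 7.95 TPM (log2 fold change 0.89 ± 0.27 SE, limma adjusted p = 0.0321). Against WT c-kit-, which had 23.5, 22.3 and 32.3 TPM, Irf7 was lower in the labelled IRF7-/- libraries (log2 fold change -1.49 ± 0.27 SE, limma adjusted p = 0.00298). That comparison mixes genotype with c-kit status, so it cannot check the label. WT c-kit+ was lower still against WT c-kit- (log2 fold change -2.38 ± 0.19 SE, limma adjusted p = 0.000154). The study also checked IRF7 in its models by PCR and on protein blots, data not used here. The study's IRF7-/- allele replaces some exons by a cassette, and a value per gene does not show which exons were read. Every direction given below for the labelled IRF7-/- libraries rests on that label. Genes of the neutrophil line (8 of 8 present) summed to 14659 to 27478 TPM in WT c-kit+. They summed to 1605 to 8024 TPM in WT c-kit- and to 396 to 711 TPM in the labelled IRF7-/- libraries. The sum rested mainly on Camp and Ngp, with means of 8553 and 10420 TPM in WT c-kit+. All 8 had their lowest mean in the labelled IRF7-/- libraries, but only Ltf, Camp, Ngp and Lcn2 were highest in WT c-kit+, while Mmp8, Mmp9, Retnlg and Cxcr2 were highest in WT c-kit-. Counting was not stated to use the strand, so reads of a member and of a gene on its other strand cannot be told apart. Such genes were Hmgxb3 at Csf1r (12.2 to 18.7 TPM), Gm42809 at Il6ra (0 to 1.15 TPM), Gm26597 at Flt3 (0 to 0.13 TPM) and Gm48860 at Il3ra (listed at 0 in all 9 libraries). T cell genes summed to at most 1.43 TPM in any library. A list of genes expected in these myeloid leukemia cells (Ptprc, Itgam, Ly6g, Cd34, Hoxa9 and Meis1) summed to 619 to 974 TPM in the 9 libraries. This sum hides genes that ran apart. Ptprc and Cd34 had their highest mean in WT c-kit-, Itgam and Ly6g in WT c-kit+, and Hoxa9 and Meis1 in the labelled IRF7-/- libraries. Ly6g was at 1.77, 0.65 and 1.15 TPM in the latter. It was at 11.4 to 65.0 TPM in WT c-kit- and 19.6 to 45.4 TPM in WT c-kit+.

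Promoter sequences are shown for 4 of the members whose levels differed between groups and whose window held a motif. Csf3r and Csf2ra also met this description and are not shown. RefSeq windows on GRCm38.p6, from 250 bases before to 50 bases after the start site, matched 7 of the 9 members, all but Csf1r and Csf2rb. Both strands were searched for AGGAAGT, an ETS motif of the kind bound by the myeloid factor PU.1, for TTGCNNAA, a C/EBP motif, for GAAANNGAA, a motif of interferon regulatory factors, and for GGGCGG, the GC box. Capitals mark the ETS motif in Il6ra and Csf2rb2, the ETS and C/EBP motifs, which overlap by a base, in Il3ra, and the GC box in Kit. Il3ra is shown at chr14:14346347-14346376 (plus strand), Il6ra at chr3:89913197-89913386 (minus strand), Csf2rb2 at chr15:78305676-78305705 (minus strand) and Kit at chr5:75574767-75574915 (plus strand), each 5′ to 3′.
Il3ra: actatctcAGGAAGTTGCTCAAtctcggga
Il6ra: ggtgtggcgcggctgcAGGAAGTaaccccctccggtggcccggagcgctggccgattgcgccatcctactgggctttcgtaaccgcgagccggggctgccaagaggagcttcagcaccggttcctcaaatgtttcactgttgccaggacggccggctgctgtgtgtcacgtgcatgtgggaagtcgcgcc
Csf2rb2: gggcactggcaACTTCCTcaatctgctctc
Kit: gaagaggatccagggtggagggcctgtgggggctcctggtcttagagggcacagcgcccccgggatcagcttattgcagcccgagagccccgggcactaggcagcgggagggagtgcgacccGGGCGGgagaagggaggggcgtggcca

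The ETS letters were found in 9.35% of all 32851 promoter windows, the C/EBP letters in 10.8%, the interferon regulatory letters in 8.56% and the GC box in 35.7%. Among the members the ETS letters stood in the windows of Il6ra, at base -174, Il3ra, at -140, and Csf2rb2, at 28 on the opposite strand. Positions count from the RefSeq start site. The Il3ra stretch shown lies inside the gene by the coordinates given below, in which Il3ra begins at base 14346275. The C/EBP letters stood in Il3ra, at -134. The interferon regulatory letters stood in Csf3r, at 41. The GC box stood in Kit, Il3ra and Csf2ra. A match of letters is a description and does not show binding.

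The 9 members fell into a few patterns across the 3 groups, as the plot of each receptor by library shows. Csf2ra was the most abundant in all 9 libraries. Csf1r and Il6ra were high in WT c-kit- and low in both c-kit+ groups. Il3ra, Csf2rb and Csf2rb2 were lowest in WT c-kit+ and higher in both other groups. In bulk RNA, fewer cells of a type and less RNA per cell cannot be told apart, which holds for each result below.

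**Figure D1:**
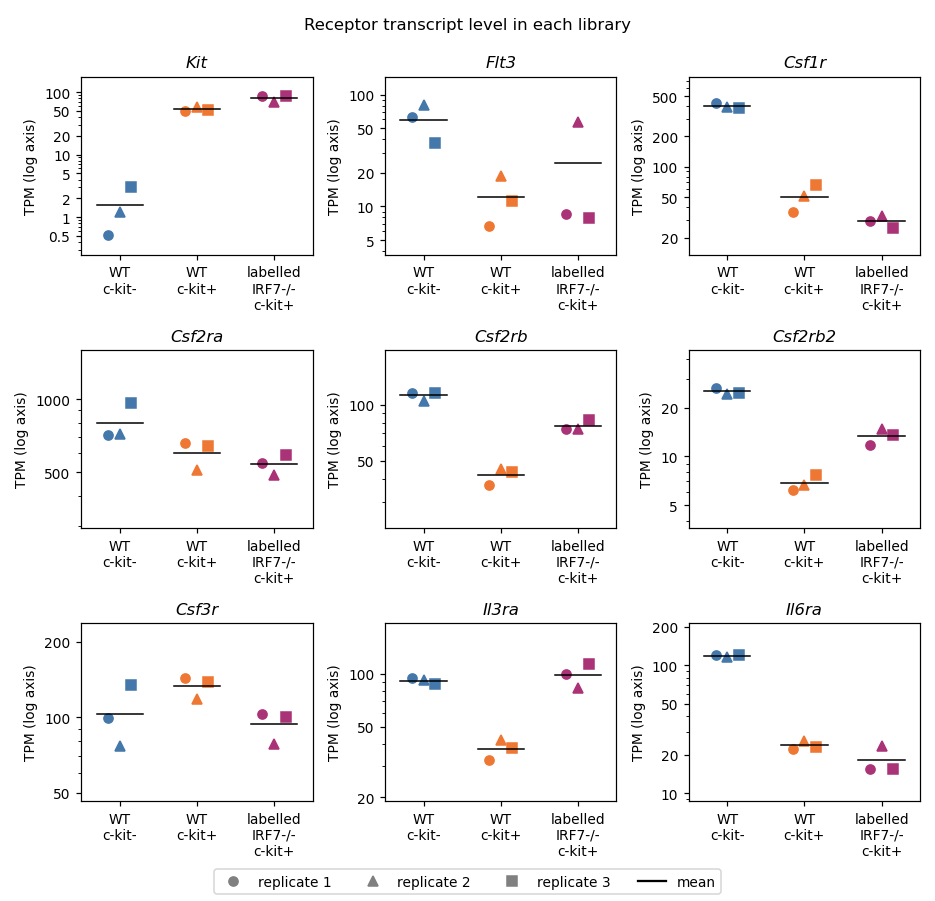
Level of each receptor in TPM (log axes, each panel on its own scale) in the 3 libraries of each group, with the replicate number as the symbol and the group mean as a line. Csf1r and Il6ra are highest in WT c-kit-, Il3ra, Csf2rb and Csf2rb2 are lowest in WT c-kit+, and Flt3 has 1 high library, replicate 2, among the labelled IRF7-/- libraries.

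The first comparison set WT c-kit+ cells, the fraction taken as more primitive, against WT c-kit- cells. Receptors other than Kit were mostly lower in the c-kit+ cells. Of 8 members tested, 6 were lower, and all 6 by at least 2-fold, while no member was higher (0 also at an unadjusted limma p under 0.05). Across the 13261 genes tested, 27.6% were lower and 14.0% higher at an adjusted p under 0.05, and 9.61% were lower and 4.83% higher by at least 2-fold as well. The median log2 fold change was -1.57 over the 8 members and -0.08 over all genes. Csf1r, Il6ra and Flt3 fell the most. Csf2ra and Csf3r did not pass the test.

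Between the labelled IRF7-/- libraries and WT c-kit+, the comparison of genotypes within c-kit+ cells, receptors moved in both directions. Il3ra, Csf2rb, Csf2rb2 and Kit were higher, which is 4 of 9 members, and Csf1r and Csf3r were lower, which is 2 of 9. Both groups had been sorted on c-kit, the protein of Kit. Across the 13238 genes tested, 31.9% were higher and 16.1% lower, so the share of members in either direction was not far from that of all genes. Il3ra alone passed 2-fold, against 6.30% of all genes higher and 5.39% lower by that rule. The median log2 fold change was 0.48 over the 9 members and 0.12 over all genes. Set against this median of 0.12, the differences were 1.25 for Il3ra, 0.76 for Csf2rb2, 0.74 for Csf2rb, 0.46 for Kit, -0.88 for Csf1r and -0.62 for Csf3r.

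Between the labelled IRF7-/- libraries and WT c-kit-, 5 of 8 members were lower, 2 of them (Csf1r and Il6ra) by at least 2-fold, and none was higher (0 also at an unadjusted limma p under 0.05). Across the 13510 genes tested, 28.7% were lower and 30.7% higher, and 11.9% were lower and 8.40% higher by at least 2-fold as well. The median log2 fold change was -0.71 over the 8 members and 0.03 over all genes. The comparisons share groups of libraries, so they are not independent of each other. The plot of differences with their intervals sets them side by side.

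**Figure D2:**
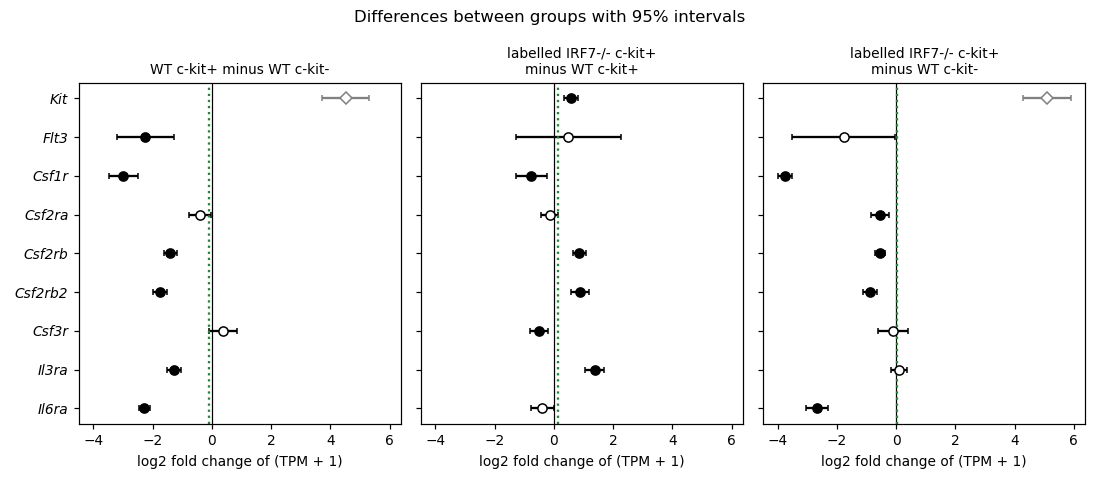
Log2 fold change of (TPM + 1) for each receptor with its 95% interval from limma, in 3 comparisons of 3 against 3 libraries. Filled circles have an adjusted p under 0.05, open circles do not, the grey diamonds of Kit are descriptions without a test since c-kit was the sort, and the dotted line is the median of all genes tested (-0.08, 0.12 and 0.03). Il3ra lies at -1.27, 1.37 and 0.10 from left to right.

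Among the receptor tyrosine kinases, Kit (chr5:75574916-75656722, plus strand, GRCm38), the receptor for stem cell factor, was the gene of the sort. It stood at 0.52, 1.19 and 3.03 TPM in WT c-kit-, at 50.7, 58.5 and 51.3 TPM in WT c-kit+ and at 85.5, 70.3 and 85.7 TPM in the labelled IRF7-/- libraries. The 3 groups did not overlap. The mean was 33.9-fold higher in WT c-kit+ than in WT c-kit-, which describes the sort and was not tested. Without WT c-kit- replicate 3 it was 62.6-fold. Within the 2 c-kit+ groups, Kit was higher in the labelled IRF7-/- libraries by a log2 fold change of 0.58 ± 0.10 (SE, limma adjusted p = 0.00385). When all 9 libraries were fitted together, the limma adjusted p of this difference was 0.136. Both groups had passed the sort on c-kit protein, and the part of that sort in the difference was not tested. The replicate 3 library of WT c-kit-, with the most Kit of its group, also had the most neutrophil transcript of its group (8024 TPM against 1605 and 2021 TPM), with 7 of the 8 genes, all but Mmp8, highest in it. Mast cells carry Kit on their surface, and a list of 6 mast cell or basophil genes summed to 19.6 to 44.6 TPM in WT c-kit-, 36.0 to 75.9 TPM in WT c-kit+ and 65.8 to 82.6 TPM in the labelled IRF7-/- libraries. Most of that sum was Mcpt8 (means of 14.2, 29.1 and 40.9 TPM) and Cpa3 (means of 18.1, 14.2 and 24.3 TPM), while Tpsb2 was listed at 0 in all 9 libraries and Cma1 and Fcer1a reached at most 0.13 and 0.22 TPM. The part of these cell types in the Kit values was not tested.

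Csf1r (chr18:61100598-61132149, plus strand), the receptor for M-CSF and IL-34 and a marker of the monocyte line, ran opposite to Kit. It stood at 423, 393 and 380.1 TPM in WT c-kit-, at 36.1, 51.0 and 65.5 TPM in WT c-kit+ and at 29.0, 32.8 and 25.0 TPM in the labelled IRF7-/- libraries. The groups did not overlap, although the highest labelled IRF7-/- library lay close under the lowest WT c-kit+ library. Csf1r fell by 2.99 on the log2 scale in WT c-kit+ against WT c-kit- (SE 0.20, limma adjusted p = 7.12e-05), a 7.84-fold difference of means. In the labelled IRF7-/- libraries it was lower than in WT c-kit- by 13.8-fold in the means, with a log2 fold change of -3.75 ± 0.10 (SE, limma adjusted p = 2.3e-06). The further difference between the labelled IRF7-/- libraries and WT c-kit+ was -0.76 ± 0.21 (limma adjusted p = 0.0244). This call was lost in 5 of 14 alternative fits, with an adjusted p of up to 0.0758, 4 of them fits without WT c-kit+ replicate 2 or 3 or labelled IRF7-/- replicate 1 or 3. Macrophage genes, in a list of 6 that does not hold Csf1r, summed to 66.6 to 102 TPM in WT c-kit-, 31.2 to 51.4 TPM in WT c-kit+ and 56.6 to 79.5 TPM in the labelled IRF7-/- libraries. Nearly all of this was Adgre1 (means of 81.9, 31.6 and 61.4 TPM). C1qa, C1qb, C1qc and Cd5l ran the other way, with means of at most 0.93 TPM in WT c-kit- and of 0.48 to 3.77 TPM in WT c-kit+. The part of macrophages in the result was not tested.

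Flt3 (chr5:147330741-147400489, minus strand), the receptor of early lymphoid and myeloid progenitors for FLT3 ligand, varied widely between replicates. It stood at 63.0, 80.2 and 36.6 TPM in WT c-kit-, at 6.72, 18.6 and 11.2 TPM in WT c-kit+ and at 8.65, 56.9 and 7.93 TPM in the labelled IRF7-/- libraries. Replicate 2 of the labelled IRF7-/- libraries was 6.57-fold above the higher of the other two and lay within the range of WT c-kit-. Flt3 fell by 2.24 on the log2 scale in WT c-kit+ against WT c-kit- (SE 0.40, limma adjusted p = 0.00448). Between the labelled IRF7-/- libraries and WT c-kit+ the difference was 0.48 ± 0.74 (limma adjusted p = 0.624), and without labelled IRF7-/- replicate 2 it turned to -0.40 (limma adjusted p = 0.424). Against WT c-kit- the difference of the labelled IRF7-/- libraries was -1.76 ± 0.73 (limma adjusted p = 0.0753), and without that library it was -2.64 and passed the test (limma adjusted p = 0.00127).

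The ratio of Kit to Csf1r in TPM, which cancels the library scaling, ordered the 3 groups without overlap. Since c-kit was the sort, the distance of WT c-kit- from both c-kit+ groups in this ratio describes the sort in part. It was 0.00123, 0.00302 and 0.00797 in WT c-kit-, 1.40, 1.15 and 0.783 in WT c-kit+ and 2.95, 2.14 and 3.43 in the labelled IRF7-/- libraries. This ratio, like the ratios of Csf2ra below, was chosen after the values were seen and was not tested. All of them are drawn in the plot of ratios within each library.

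Among the GM-CSF and IL-3 receptors, Csf2ra (chr19:61223957-61228429, minus strand), the GM-CSF alpha chain, was high in every group. It stood at 711, 720.1 and 962 TPM in WT c-kit-, at 657, 509.9 and 640.5 TPM in WT c-kit+ and at 547, 489.9 and 590.5 TPM in the labelled IRF7-/- libraries. The lowest WT c-kit- library lay above all c-kit+ libraries, and the c-kit+ groups overlapped. Csf2ra differed by -0.40 ± 0.15 between WT c-kit+ and WT c-kit- (95% interval -0.76 to -0.04, limma adjusted p = 0.0767), and the fit of all 9 libraries gave the same difference an adjusted p of 0.0461. In the labelled IRF7-/- libraries it was lower than in WT c-kit- by a log2 fold change of -0.55 ± 0.13 (SE, limma adjusted p = 0.011). Between the 2 c-kit+ groups the difference was -0.15 (95% interval -0.43 to 0.13, limma adjusted p = 0.34).

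Il3ra (chr14:14346275-14356011, plus strand), the alpha chain that binds IL-3 and is known as CD123, followed another course. It stood at 93.9, 91.5 and 87.8 TPM in WT c-kit-, at 32.4, 42.2 and 37.8 TPM in WT c-kit+ and at 99.4, 82.9 and 113 TPM in the labelled IRF7-/- libraries. WT c-kit+ lay below every library of both other groups, which overlapped each other. Il3ra fell by 1.27 on the log2 scale in WT c-kit+ against WT c-kit- (SE 0.10, limma adjusted p = 0.000136). It was 2.63-fold higher in the means of the labelled IRF7-/- libraries than in WT c-kit+, with a log2 fold change of 1.37 ± 0.14 (SE, limma adjusted p = 0.000533), and kept an adjusted p of at most 0.00401 in 14 alternative fits. Between the labelled IRF7-/- libraries and WT c-kit- the difference was 0.10 (95% interval -0.16 to 0.37, limma adjusted p = 0.463). Its window held the ETS and C/EBP letters shown above. Of 3 eosinophil genes, Siglecf was also highest in the labelled IRF7-/- libraries, at 176, 144 and 181 TPM against 22.0, 17.95 and 19.8 TPM in WT c-kit+ and 3.24, 4.30 and 4.17 TPM in WT c-kit-. Prg2 overlapped between the c-kit+ groups, and Epx, at no more than 0.99 TPM, had its highest mean in WT c-kit+. The part of eosinophils in the result was not tested.

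Both beta chains, like Il3ra, were lowest in WT c-kit+. Csf2rb (chr15:78325752-78353847, plus strand), which carries the signal of GM-CSF, IL-3 and IL-5, stood at 116, 105 and 115 TPM in WT c-kit-, at 37.0, 44.9 and 43.7 TPM in WT c-kit+ and at 74.0, 74.3 and 82.5 TPM in the labelled IRF7-/- libraries. The 3 groups did not overlap, with the labelled IRF7-/- libraries in the middle. Csf2rb fell by 1.40 on the log2 scale in WT c-kit+ against WT c-kit- (SE 0.09, limma adjusted p = 6.22e-05). It was higher by 0.86 ± 0.09 in the labelled IRF7-/- libraries than in WT c-kit+ (limma adjusted p = 0.000603) and lower than in WT c-kit- by a log2 fold change of -0.54 ± 0.07 (SE, limma adjusted p = 0.000696). The macrophage list had the same order of its summed level, with medians of 89.7, 44.6 and 65.0 TPM in WT c-kit-, WT c-kit+ and the labelled IRF7-/- libraries, through Adgre1, and its part in the values of both beta chains was not tested.

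Csf2rb2 (chr15:78282507-78305721, minus strand), the beta chain used by IL-3 alone, lies 20031 bases from Csf2rb and points away from it. It stood at 26.6, 24.5 and 24.8 TPM in WT c-kit-, at 6.21, 6.63 and 7.70 TPM in WT c-kit+ and at 11.8, 14.8 and 13.7 TPM in the labelled IRF7-/- libraries. The groups again did not overlap and had the order of Csf2rb. The log2 fold changes were -1.75 ± 0.10 for WT c-kit+ against WT c-kit- (limma adjusted p = 4.6e-05), 0.88 ± 0.12 for the labelled IRF7-/- libraries against WT c-kit+ (limma adjusted p = 0.00178) and -0.87 ± 0.10 against WT c-kit- (limma adjusted p = 0.000454). The genes are near copies: 12.3% of the 50-base stretches of Csf2rb transcripts and 18.4% of those of Csf2rb2 were found in the other gene, so how reads were split between them is uncertain. With the TPM of both summed to 1 gene, the log2 fold changes were -1.48, 0.88 and -0.60 in the same order, with limma adjusted p of 4.55e-05, 0.0005 and 0.00035.

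Csf2rb2 made up 18.7%, 18.9% and 17.7% of the summed beta chain TPM in WT c-kit-, 14.4%, 12.9% and 14.98% in WT c-kit+ and 13.7%, 16.7% and 14.2% in the labelled IRF7-/- libraries. The share was highest in WT c-kit-, without overlap, and the c-kit+ groups overlapped. The difference between WT c-kit+ and WT c-kit- was -4.37 percentage points (exact permutation p = 0.1, two-sided, the smallest that 3 against 3 libraries allow, and 0.15 adjusted over 3 comparisons). The labelled IRF7-/- libraries differed by -3.59 points from WT c-kit- (exact permutation p = 0.1, adjusted 0.15) and by 0.787 points from WT c-kit+ (exact permutation p = 0.6).

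The balance of the alpha chains differed among the groups. Csf2ra exceeded Il3ra by 7.57, 7.87 and 10.96 times in WT c-kit-, by 20.3, 12.1 and 16.9 times in WT c-kit+ and by 5.50, 5.91 and 5.22 times in the labelled IRF7-/- libraries. The ratio of Csf2ra to Csf2rb was 6.14 to 8.36 in WT c-kit-, 11.3 to 17.8 in WT c-kit+ and 6.60 to 7.39 in the labelled IRF7-/- libraries. Both ratios were highest in WT c-kit+, without overlap with the other groups.

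**Figure D3:**
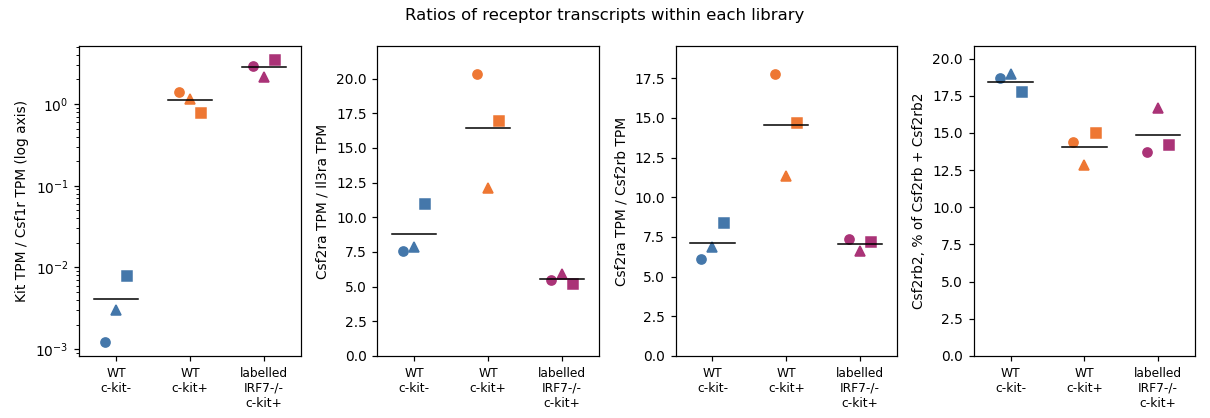
Ratios of receptor TPM within each library, from left to right Kit to Csf1r (log axis), Csf2ra to Il3ra, Csf2ra to Csf2rb, and Csf2rb2 as a percentage of Csf2rb plus Csf2rb2. Symbols are replicates as in the plot of levels and lines are group means; Csf2ra to Il3ra reaches 20.3 in WT c-kit+ and stays at or under 5.91 in the labelled IRF7-/- libraries.

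Csf3r (chr4:126024550-126044440, plus strand), the G-CSF receptor of the neutrophil line, showed smaller differences. It stood at 99.6, 76.5 and 134 TPM in WT c-kit-, at 144, 118 and 138 TPM in WT c-kit+ and at 103, 78.2 and 100.5 TPM in the labelled IRF7-/- libraries. WT c-kit- overlapped both c-kit+ groups, which did not overlap each other. Csf3r was lower in the labelled IRF7-/- libraries than in WT c-kit+ by a log2 fold change of -0.50 ± 0.13 (SE, limma adjusted p = 0.0161). That call was lost in 3 of 14 alternative fits, with an adjusted p of 0.0574 in the fit of all 9 libraries, 0.0547 without WT c-kit+ replicate 1 and 0.052 without WT c-kit+ replicate 3. Between WT c-kit+ and WT c-kit- the difference was 0.39 ± 0.20 (limma adjusted p = 0.157), and without WT c-kit- replicate 3 it was 0.60 and passed (limma adjusted p = 0.02). The neutrophil genes Ltf, Camp, Ngp and Lcn2 were also highest in WT c-kit+, the other 4 of that list in WT c-kit-, and all 8 were lowest in the labelled IRF7-/- libraries. Within WT c-kit-, 7 of the 8 were highest in replicate 3, where Csf3r was highest. Their part in these values was not tested.

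Il6ra (chr3:89864059-89913196, minus strand), which binds IL-6 and signals through the partner chain Il6st, known as gp130, fell together with Csf1r. It stood at 120, 115 and 120.1 TPM in WT c-kit-, at 22.0, 25.8 and 23.2 TPM in WT c-kit+ and at 15.4, 23.5 and 15.4 TPM in the labelled IRF7-/- libraries. WT c-kit- lay above all c-kit+ libraries, and the c-kit+ groups overlapped through labelled IRF7-/- replicate 2. Il6ra fell by 2.28 on the log2 scale in WT c-kit+ against WT c-kit- (SE 0.07, limma adjusted p = 9.09e-06). The labelled IRF7-/- libraries were lower than WT c-kit- by a log2 fold change of -2.67 ± 0.16 (SE, limma adjusted p = 2.74e-05). Between the c-kit+ groups the difference was -0.39 ± 0.17 (limma adjusted p = 0.0977), and without labelled IRF7-/- replicate 2 it was -0.58 and passed (limma adjusted p = 0.00621).

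Exact permutation tests of single members, 25 in all with Kit left out where it was sorted, cannot go below p = 0.1 with 3 libraries against 3. That smallest exact p was reached in 18 of them, and no adjusted value was below 0.139. How often other genes reached that p was not counted, so these 18 do not set the members apart from other genes.

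Of 56 genes in 6 lists around the receptors, most of the ligands were near 0. The lists were chosen with earlier results of these data known, so their counts and medians below are descriptions without a set test. Kitl, Il34, Csf2, Csf3, Il3, Il5 and Il6, which is 7 of 9 ligands, did not reach the filter of 1 TPM in 3 libraries in any comparison. Csf2 and Il3 were listed at 0 in all 9 libraries. Flt3l was the highest ligand, at 22.1, 17.0 and 25.4 TPM in WT c-kit- and 10.3, 11.5 and 12.8 TPM in WT c-kit+, and it was lower in the latter by a log2 fold change of -0.83 (SE 0.16, limma adjusted p = 0.00599).

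In WT c-kit+ against WT c-kit-, 26 of 43 tested genes of the 6 lists were lower and 7 higher, beside 27.6% lower and 14.0% higher among all genes. The median log2 fold change was -0.53 against -0.08 over all genes. Of 7 partner and related receptors, 6 were lower. The IL-6 partner Il6st stood at 68.8, 58.5 and 46.8 TPM in WT c-kit- and at 5.53, 9.72 and 9.06 TPM in WT c-kit+, and fell by 2.71 on the log2 scale (SE 0.22, limma adjusted p = 0.00016). Il10ra, the IL-10 receptor chain, fell by 3.18, and Lifr, which pairs with Il6st to bind LIF, fell by 2.89. Lifr stood at 10.2, 18.6 and 11.4 TPM in WT c-kit- and at 0.56, 0.98 and 1.19 TPM in WT c-kit+. It would not have met the filter without WT c-kit-, so the filter favoured its fall. Of 12 kinases and adaptors, 8 were lower and 1 was higher. Lyn, a SRC-family kinase, fell by 1.36 and Gab2, an adaptor of the PI3K and RAS routes, fell by 1.07. Of 11 inhibitors, 6 were lower, among them the JAK brake Sh2b3 with a fall by 1.39 and the ubiquitin ligase Cblb with a fall by 1.13, and 2 were higher, among them Dok2 at 1.55. Of 8 targets, 3 were lower, among them the survival gene Bcl2 with a fall by 1.04, and 3 were higher, among them Id1 at 1.65. Of the 3 STATs, Stat5a and Stat5b were lower and Stat3 was higher.

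In the labelled IRF7-/- libraries against WT c-kit+, 16 of 41 tested genes were lower and 4 higher, beside 16.1% lower and 31.9% higher among all genes. The median was -0.16 against 0.12 over all genes. Pim1, a kinase gene induced by STAT5, stood at 39.4, 58.7 and 38.8 TPM in WT c-kit+ and at 7.60, 9.63 and 6.12 TPM in the labelled IRF7-/- libraries, and fell by 2.40 (limma adjusted p = 0.000289). Osm, which encodes oncostatin M, fell by 2.33 (limma adjusted p = 0.00524), and Cish, a feedback inhibitor induced by STAT5, fell by 1.17 (limma adjusted p = 0.00101). Of 8 targets, 4 were lower, and of 10 inhibitors, 3 were lower. Stat5a was higher and Stat3 lower, while Stat5b did not pass. Among 6 partner and related receptors, Il10ra fell by 1.80 and Il6st fell by 1.62. Pdgfrb, a relative of Kit, rose by 2.72 to 12.1, 15.9 and 12.7 TPM from 0.68, 1.46 and 1.57 TPM. It would not have met the filter without the labelled IRF7-/- libraries, so the filter favoured its rise. Il2rg, the common gamma chain, rose by 1.71. Of 12 kinases and adaptors, 5 were lower and 1 higher.

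Against WT c-kit-, 27 of 43 tested genes were lower in the labelled IRF7-/- libraries and 6 higher, beside 28.7% lower and 30.7% higher among all genes. The median was -0.45 against 0.03 over all genes. Il10ra fell by 4.98, Il6st fell by 4.34 and Lifr fell by 3.55, and Pdgfrb rose by 2.04. Without WT c-kit-, Il10ra would not have met the filter here either, so the filter favoured its fall. Lyn fell by 1.96, Gab2 fell by 1.30 and the JAK-family kinase Tyk2 fell by 1.07. Among the targets Pim1 fell by 3.38, Osm fell by 3.14 and Bcl2 fell by 1.68, and Id1 rose by 2.09. Among the inhibitors Socs3 fell by 1.42, Sh2b3 fell by 1.41 and the phosphatase gene Ptpn6 fell by 1.00. Socs3 (1.07, 2.34 and 2.59 TPM in WT c-kit-, 0.11, 0.14 and 0.02 TPM in the labelled IRF7-/- libraries) met the filter through WT c-kit- alone. So did Lifr (10.2, 18.6 and 11.4 TPM against 0.20, 0.12 and 0.27 TPM). The filter thus favoured their falls, and neither gene was tested between the c-kit+ groups. The plot of these lists shows each gene.

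**Figure D4:**
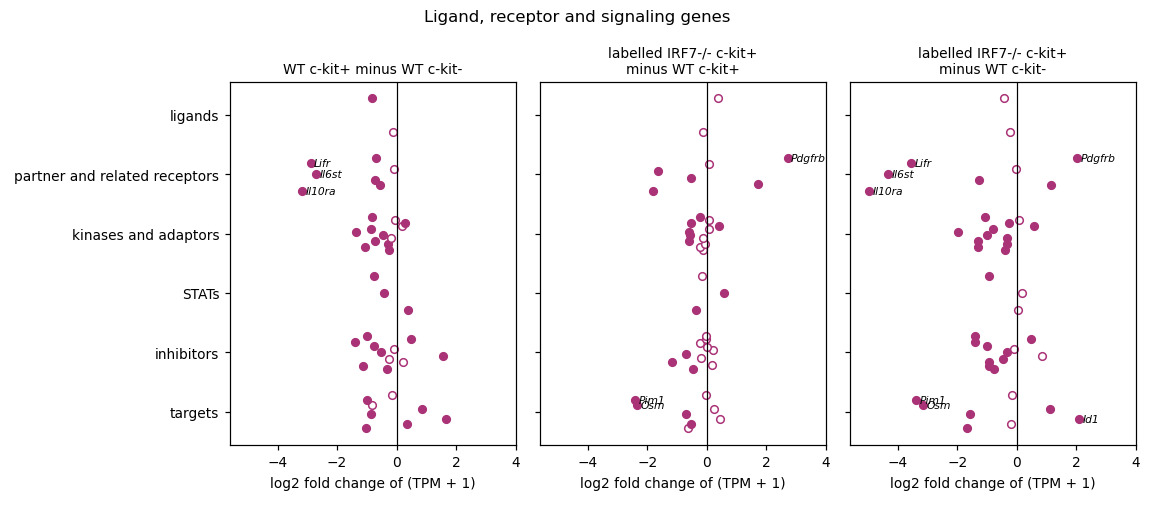
Log2 fold change of (TPM + 1) of the tested genes of 6 lists (rows) in 3 comparisons (panels), with filled points at an adjusted p under 0.05 and names where the change is at least 4-fold. Il10ra, Il6st and Lifr lie far to the left of the line at 0 in both comparisons with WT c-kit-, at -2.71 to -4.98, and Pim1 and Osm in both comparisons of the labelled IRF7-/- libraries. Lifr met the filter only through WT c-kit-. In both comparisons of the labelled IRF7-/- libraries Il10ra would not have met it without the WT group. Pdgfrb would not have met it in the middle panel without the labelled IRF7-/- libraries.

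Among 10284 genes with a mean of at least 5 TPM, the 3 whose log2(TPM + 1) was most like each member over the 9 libraries were found by Pearson's r. The 9 libraries fall into 3 groups, so a high r mostly describes shared group means and carries no p. Nearest to Kit were Cd63, Rgcc and Slc25a37, each at r = 0.997. Nearest to Csf1r were P2rx7 (0.997), Fcgrt and Serpinb10 (both 0.996), and nearest to Il6ra were Anxa7 (0.998), Sh3glb1 and Atp7a (both 0.997). Nearest to Il3ra were Cox4i1 (0.994), Tgfb1 (0.992) and 2310022B05Rik (0.991). Csf2rb was nearest to Map4k4 (0.997), Cndp2 (0.996) and Creg1 (0.993), and Csf2rb2 to Fam126a (0.994), Fkbp15 and Apoc2 (both 0.993). The remaining members had looser neighbours: Rnf130 (0.990), Lrch4 (0.978) and Ostf1 (0.977) for Csf2ra, Gm20388 (0.979), Hes6 (0.962) and Chd4 (0.961) for Flt3, and Pilrb2 (0.981), Tnfsf13b (0.952) and Pilrb1 (0.951) for Csf3r.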

How the data were processed

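RNA-seq libraries were made with the TruSeq RNA kit v2 from total RNA, while the paper's methods name the assay a microarray. The authors deposited 1 table of expression per gene without a stated unit, taken as TPM since each library summed to between 987468 and 992231. The aligner, genome build and quantifier are not given in the sources used here. All 55536 gene identifiers matched GENCODE M21 (GRCm38), which gave coordinates. TPM in 1 library depend on all its other genes. Groups came from the sample titles.

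Limma 3.58.1 in R 4.3.3 (lmFit, eBayes with trend) was run on log2(TPM + 1) for every pair of groups, using the 6 libraries of the pair and the genes that reached 1 TPM in 3 or more of them, with Benjamini-Hochberg adjustment over all genes tested and a threshold of 0.05. Fold changes on this scale understate low genes. Genes at least 2-fold changed were also counted. Exact permutation tests (two-sided) used Python 3.11.15 with scipy 1.17.1. Scripts were tested on simulated data. The members and lists were chosen with earlier results of these data known. The text names all 9 members, up to 4 list genes with the largest changes past both thresholds per list and comparison, the 3 genes most like each member, and Irf7 as label check. Flt3l, the STATs, ligands near 0 and genes overlapping a member were named after their values were seen. A gene that the rule names is not reported here. Alternatives were other filters (none, 5 TPM), a pseudocount of 0.1, quantile normalization, median centring, all 9 libraries in 1 fit, a replicate block, no trend, and each library left out.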

Additional observations from a re-analysis of the deposited data

How the results depend on the processing

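When each library was left out in turn, the number of members called was 6 to 7 of 8 in WT c-kit+ against WT c-kit-, 4 to 7 of 9 in the labelled IRF7-/- libraries against WT c-kit+ and 5 to 6 of 8 against WT c-kit-. Among all genes the calls ran from 4207 to 4898, from 4535 to 5922 and from 6381 to 7035 in the same order. In the main fits they were 5519 of 13261, 6357 of 13238 and 8023 of 13510. Of 356 member differences recomputed under the alternatives, with Kit left out where it was sorted, 337 kept their direction and side of the threshold, 9 lost the call, 7 gained one and 3 turned in direction, none of these 3 called. The turns were Flt3 against WT c-kit+ (-0.40 without labelled IRF7-/- replicate 2, up to 0.95 without another library) and Csf3r against WT c-kit- (0.10 without WT c-kit- replicate 3 and 0.02 without labelled IRF7-/- replicate 2, down to -0.30 without another library). The calls lost were all in the labelled IRF7-/- libraries against WT c-kit+ and concerned Csf1r, Csf3r and Kit. The difference in Csf2rb2 share between those groups ran from -0.114 to 1.36 percentage points with a library left out, and was -0.114 without labelled IRF7-/- replicate 2. With a filter of 5 TPM, which tests fewer genes, 1015 of all genes were called and at least 2-fold changed in that comparison against 1548 with 1 TPM. The labels do not say that a replicate number marks a shared animal or day. Deviations of same-numbered libraries correlated at -0.071 to 0.237, above 0 in 8 of 9 pairs but above 0.1 in 1, and those of differently numbered libraries at -0.184 to 0.144, above 0 in 3 of 18. In 13 of 18 cases a library's closest match in another group had its own number, so some pairing cannot be set aside, and the fit without the block was kept as the main one. With the replicate block, members called were 7, 7 and 6 in the order above, Csf2ra (adjusted p = 0.0447), Il6ra (0.0452) and Flt3 (0.0226) gaining a call by limma. Of all genes, 5164, 5826 and 7718 were called with that block. TPM show no depth, which limits what can be said of low values such as Kit in WT c-kit-.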

Other observations

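Labelled IRF7-/- replicate 2, the library in which Flt3 stood apart, also differed from its group in a few other genes, which were looked for after the Flt3 values were seen. Of 13238 genes tested, 12 lay at least 2 on the log2 scale above both other libraries in that replicate, Flt3 among them, against 24 such genes in replicate 1 and 12 in replicate 3. Besides Flt3 the 11 genes were Pagr1a, Trim43a, the small nucleolar RNA gene Snora73b and 8 gene models with Gm numbers. The next 3 genes lie outside that count and were chosen after their values were seen. Kcnab1, a potassium channel subunit gene that did not pass the filter, was at 55.4 TPM in replicate 2 and at 0.37 and 0.47 TPM in the other two, with no more than 0.30 TPM in any WT library. Mef2c, which encodes a transcription factor and lay 1.83 above both others, was at 42.4 TPM there against 11.2 and 5.64 TPM, and at 120 to 191 TPM in the WT libraries. Cd24a, a surface protein gene of immature blood cells that lay 1.92 above both, was at 115 TPM against 29.6 and 25.7 TPM, and at 248 to 401 TPM in the WT libraries. The part of this library's makeup in the Flt3 value was not tested.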
